A study of Mus musculus with 12 samples.

Results

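Galectins are small lectins that bind β-galactoside sugars on glycoproteins, and 4 galectin genes (Lgals1, Lgals3, Lgals8 and Lgals9) together with Lgals3bp, the gene of a secreted glycoprotein that binds galectin-3, were followed through single-cell RNA sequencing of mouse aorta. These 5 genes were taken by name from the 32245 gene symbols in the gene expression matrices, and by no rule on measured values. Earlier results of these data were known when they were chosen. All mice were labelled as male C57BL/6J ApoE-/-, a genotype without apolipoprotein E that accumulates cholesterol-rich lipoproteins, and were aged 8 weeks at the start. The Apoe level of the Healthy library went against that label, as given below. The Healthy group received a normal diet and saline. The AS group (atherosclerosis) received a high-fat diet with 1% cholesterol and 10% fat and saline for 24 weeks. The MTZ-treated group received the same diet, with saline first and methazolamide (MTZ, a carbonic anhydrase inhibitor) at 25 mg/kg from week 13, for 12 weeks. The MTZ-preventive group had MTZ at that dose beside the diet throughout the 24 weeks. Each group of 18 mice gave 1 gene expression library from 6 pooled aortas, so no value below has a replicate error, and no test between groups was possible.

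Galectins are made in the cytosol and leave cells by a route that does not use the classical secretory pathway. Outside the cell they cross-link glycans on receptors and matrix, and inside it they bind glycans exposed on damaged vesicles. Galectin-3, the product of Lgals3, is abundant in macrophages and is a widely used macrophage and plaque marker. Galectin-1 is the main galectin of mesenchymal cells such as smooth muscle cells and fibroblasts. Galectin-9 is known for its endothelial and immune cell expression and its induction by interferon, and galectin-8 is a tandem-repeat galectin that senses damaged lysosomes and endosomes.

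The genes lie on 4 chromosomes of GRCm38.p6, with Lgals1 at chr15:78926725-78930465, Lgals3 at chr14:47373860-47386167, Lgals8 at chr13:12439402-12464977, Lgals9 at chr11:78962979-78984924 and Lgals3bp at chr11:118392747-118401959. Promoter windows of RefSeq (GRCm38.p6) were used for 4 of the 5 genes, and that of Lgals1 was not used here. The windows of Lgals9 and Lgals3bp are shown because they hold the letters of an interferon-type element, and that of Lgals3, the gene with the widest range of levels, is shown beside them. Each runs from 250 bases before to 30 bases after the annotated start, 5′ to 3′ on the strand of the gene, and capitals mark the letters GAAANNGAA or AANNGAAAC on either strand.
Lgals9, chr11:78984895-78985174, minus strand: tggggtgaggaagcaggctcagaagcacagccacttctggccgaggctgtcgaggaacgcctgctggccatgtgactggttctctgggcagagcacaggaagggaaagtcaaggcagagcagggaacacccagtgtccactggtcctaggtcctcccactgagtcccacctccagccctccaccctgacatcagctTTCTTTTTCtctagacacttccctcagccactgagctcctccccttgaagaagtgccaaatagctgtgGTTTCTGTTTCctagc
Lgals3bp, chr11:118401930-118402209, minus strand: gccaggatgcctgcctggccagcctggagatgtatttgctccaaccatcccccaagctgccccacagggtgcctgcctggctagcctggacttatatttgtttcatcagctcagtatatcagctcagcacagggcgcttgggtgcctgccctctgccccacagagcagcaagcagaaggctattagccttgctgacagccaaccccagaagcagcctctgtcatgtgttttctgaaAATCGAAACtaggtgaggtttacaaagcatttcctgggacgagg
Lgals3, chr14:47373610-47373889, plus strand: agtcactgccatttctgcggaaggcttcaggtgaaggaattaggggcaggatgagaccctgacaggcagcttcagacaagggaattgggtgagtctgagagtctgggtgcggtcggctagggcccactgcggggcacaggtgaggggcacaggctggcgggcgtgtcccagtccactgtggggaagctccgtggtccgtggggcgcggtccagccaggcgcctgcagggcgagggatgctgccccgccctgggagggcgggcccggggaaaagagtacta

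In Lgals9, GAAANNGAA matched as its reverse complement at positions -54 to -46 and again at 17 to 25 from the start, and the second match overlapped one of AANNGAAAC at 15 to 23. In Lgals3bp, AANNGAAAC matched as read at -14 to -6. Over all 32851 windows of 300 bases, GAAANNGAA was found in 8.56% and AANNGAAAC in 5.77%. The Lgals3 window had neither of these letters and held CCGCCC, a GC box core found in 35.7% of windows, at -7 to -2 and as its reverse complement at 5 to 10. The Lgals8 window matched none of these motifs over its 300 bases, and the AP-1 letters TGANTCA, found in 7.81% of windows, was in none of the 4. The Lgals3 window was the richest in G and C, at 67% with 18 CpG, against 58% and 4 for Lgals9, 55% and 3 for Lgals3bp and 51.7% and 6 for Lgals8. The medians over all windows were 52.7% and 7. The motifs were chosen after the sequences had been seen, and a match of letters is a description of the window and not a binding site.

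The 4 libraries kept 11121 (Healthy), 2160 (AS), 6796 (MTZ-treated) and 14186 (MTZ-preventive) cells, with 3751394 to 32443920 unique molecular identifiers (UMIs, counted RNA molecules) in all and a median of 1297 to 1908 per cell. Any pair of libraries shared 23 to 240 kept cell barcodes, at most 2.21% of the smaller library, and no shared barcode had the same UMI total in both. The library labelled Healthy went against its genotype label: Apoe, the deleted gene, was at 697 CPM there (counts per 1e+06 UMIs) and at 11.2 CPM in AS, 12.6 in MTZ-treated, with 8.29 in MTZ-preventive. Diet and Apoe level therefore cannot be told apart in any comparison with that library, and Healthy below stands only for the library labelled Healthy. The AS library also stood apart, being the smallest, with S100a8, a neutrophil gene, at 2693 CPM against 4.36 to 34.4 CPM elsewhere. Cells were given a class where at least 3 marker genes of that class had a UMI and the class led by at least 2 markers. No galectin was a marker. A class was described in a library where it had at least 20 cells. Of the kept cells, 59.5% (AS) to 80.2% (Healthy) had a class, and AS had only 13 B-like and T/NK-like cells together. All intervals are exact 95% limits for counting error only.

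Over whole libraries Lgals3 had the widest spread. It stood at 39.6 CPM in Healthy (limits 37.3 to 42.0), 677 in AS (651 to 704), 311.5 in MTZ-treated (302.7 to 320.5) and 175 in MTZ-preventive (170 to 179). AS was the highest and Healthy the lowest, with none of the 4 intervals overlapping. Lgals1 stood at 1116 CPM in Healthy (1104 to 1129), 1250 in AS (1214 to 1286), 2848 in MTZ-treated (2821 to 2875) and 1276 in MTZ-preventive (1264 to 1288). Here MTZ-treated was set apart from the other 3 libraries, which lay close together.

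The other 3 genes were flatter. Lgals9 was at 122 CPM in Healthy (118 to 127), 86.1 in AS (77 to 96.0), 81.1 in MTZ-treated (76.6 to 85.7) and 88.8 in MTZ-preventive (85.6 to 92.1), so that Healthy stood above 3 libraries whose limits overlapped. Lgals3bp was at 49.4 CPM in Healthy, 56.8 in AS, 44.0 in MTZ-treated, with 42.6 in MTZ-preventive. Lgals8 was at 24.9, 19.7, 18.2 and 21.7 CPM in the same order, a range within which the AS limits (15.5 to 24.8) covered both MTZ libraries.

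**Figure D1:**
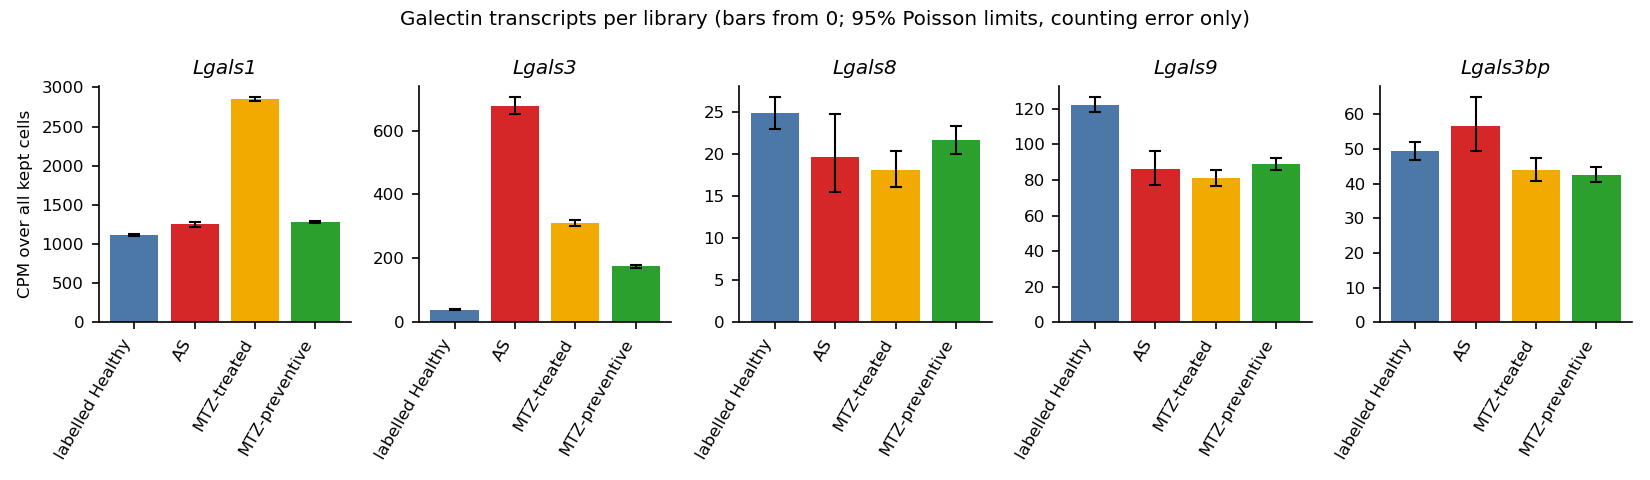
Level of each gene (CPM, linear axis) over all kept cells of each library, with exact 95% Poisson limits for counting error. Lgals3 runs from 39.6 in Healthy to 677 in AS, Lgals1 stands out in MTZ-treated at 2848, and Lgals8, Lgals9 and Lgals3bp stay within narrow ranges.

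A gene was counted as past 2-fold where log2 of the ratio of levels, with 1 CPM added to each, was at least 1 or at most -1. AS against the library labelled Healthy asks what the high-fat diet goes with, but Apoe differed between them as well. Lgals3 was 17.1 times as high in AS (15.9 to 18.4, log2 4.06), and it was the 1 gene of 5 past 2-fold, where 9.27% of the 9312 genes with at least 10 CPM were higher and 11.8% lower past that fold. Lgals1 was 1.12 times as high (1.09 to 1.15) and Lgals9 0.704 times (0.626 to 0.789), while the limits for Lgals3bp (0.991 to 1.33) and Lgals8 (0.615 to 1.01) included equal levels. With 1 library per group these ratios describe the libraries, and the spread between animals is unknown.

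The MTZ libraries were each set against AS, which asks what the drug goes with on the same diet. Both comparisons share the AS library, so that a value particular to AS enters each of them. In MTZ-treated, Lgals3 was at 0.460 times its AS level (0.438 to 0.483, log2 -1.12) and Lgals1 at 2.28 times (2.21 to 2.35, log2 1.19), 2 of 5 genes past 2-fold beside 5.18% of 8897 genes higher and 5.59% lower. Lgals3bp was at 0.775 times (0.663 to 0.909), and the limits of Lgals9 (0.832 to 1.07) included 1. In MTZ-preventive, Lgals3 was at 0.258 times its AS level (0.246 to 0.271, log2 -1.95), the 1 gene of 5 past 2-fold beside 4.36% of 8915 genes higher and 2.98% lower. Lgals1 was level there (1.02, 0.991 to 1.05), and Lgals3bp was at 0.751 times (0.649 to 0.871). Both counts went to 0 when every class with at least 20 cells in both libraries was given the same weight. The log2 ratio of Lgals3 was then -0.01 in MTZ-treated and -0.40 in MTZ-preventive, and that of Lgals1 in MTZ-treated 0.64. MTZ-preventive had too few macrophage-like cells, so its value leaves that class out. A level over a whole library mixes the makeup of its cells with the level inside each class, and the classes are therefore taken next.

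Macrophage-like cells, gated on complement C1q genes, Csf1r, Adgre1 and related markers, held the highest Lgals3 levels. There were 33 of them in Healthy, 80 in AS, 103 in MTZ-treated and only 3 in MTZ-preventive, too few for a level. Lgals3 in them stood at 630 CPM in Healthy (458 to 845), 5436 in AS (5095 to 5794) and 5718 in MTZ-treated (5453 to 5992). AS and MTZ-treated overlapped, at a ratio of MTZ-treated to AS of 1.05 (0.971 to 1.14, log2 0.07). Over 7 alternatives of processing that log2 ratio ran from -0.59 to 0.12, the lowest outside these limits. AS was 8.63 times as high as Healthy (6.38 to 12). Of the genes in this class, 28.3% were higher past 2-fold in AS and 31.5% lower. The Healthy cells of the class held only 69879 UMIs, so 1 UMI there was 14.3 CPM and met the 10 CPM limit. These shares therefore take in genes with 1 UMI in Healthy. With each cell thinned to 1000 UMIs, 24.2% of the macrophage-like cells in Healthy (11.1 to 42.3) had an Lgals3 UMI, 95% in AS (87.7 to 98.6) and 77.7% in MTZ-treated (68.4 to 85.3). The summed macrophage markers were at 8171 CPM in the Healthy class, 16523 CPM in MTZ-treated and nearly the same in AS, with 12 of 12 detected in each.

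Macrophage-like cells were split by foam-type genes, which mark lipid-laden macrophages: at least 2 of Trem2, Mmp12, Gpnmb, Atp6v0d2 and Spp1. No Healthy cell met this rule, against 69 of 80 in AS and 50 of 103 in MTZ-treated. Cells with more UMIs meet such a rule more readily, here and in the splits by gene sets below. Foam-type cells of low depth may thus have missed it. In MTZ-treated, Lgals3 was at 7210 CPM in the foam-gene cells and 2801 CPM in the 53 others, a ratio of 2.57 (2.27 to 2.93). Lgals1 differed less between the same cells, at 3309 and 2047 CPM (1.62, 1.38 to 1.89). In AS the foam-gene cells had 5618 CPM of Lgals3 (5256 to 5999) and carried 35.1% of all Lgals3 UMIs of the library. Only 11 macrophage-like cells there did not meet the rule. The cells with resident macrophage genes, 9 in Healthy and 9 in MTZ-treated, were too few to describe.

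The share of the Lgals3 UMIs of a library that came from macrophage-like cells was 3.97% in Healthy, 37.2% in AS, 37.1% in MTZ-treated, with 0.106% in MTZ-preventive. These cells were at most 3.70% of the kept cells of a library. Fibroblast-like cells gave 16.5%, 12.9%, 35.1% and 43.5% in the same order, and smooth muscle-like cells 24.5%, 1.06%, 5.01% and 9.38%. Cells without a class gave 22.1%, 31.8%, 13.7% and 20.2%. Among the classless cells of AS, 182 had macrophage genes without meeting the gate, at 2116 CPM of Lgals3, and these held 20.9% of the Lgals3 UMIs of the library. This subset was chosen after its values had been seen. Lgals1 was divided otherwise, with fibroblast-like cells giving 38.4%, 33.4%, 54.7% and 46.5% and smooth muscle-like cells 36.8%, 11.6%, 25.2% and 29.1%.

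**Figure D2:**
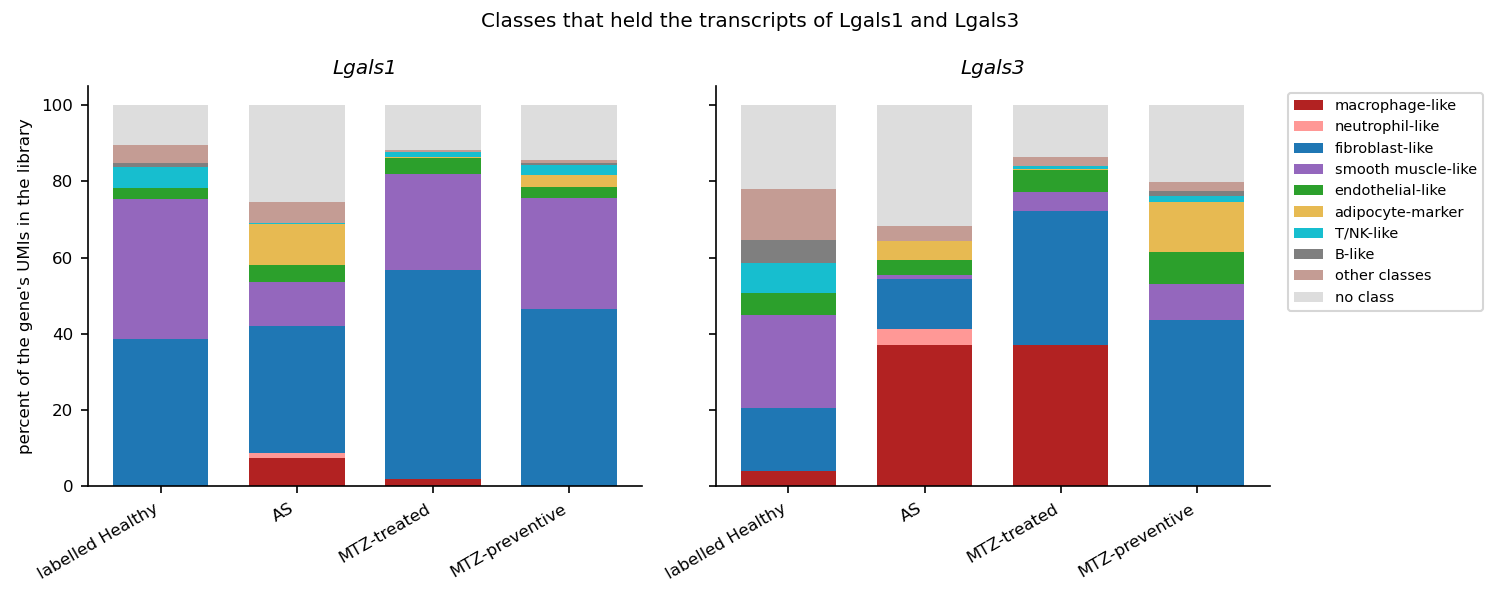
Share of the UMIs of Lgals1 and of Lgals3 in each library (percent, bars starting at 0) that came from each cell class. Macrophage-like cells give 37.2% of Lgals3 in AS and 37.1% in MTZ-treated but 3.97% in Healthy and 0.106% in MTZ-preventive, while fibroblast-like and smooth muscle-like cells give most of Lgals1 in Healthy and both MTZ libraries.

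Outside macrophages Lgals3 was also higher in AS than in the library labelled Healthy, with its high Apoe. In fibroblast-like cells (Dcn, Lum, Pdgfra and collagen genes) it stood at 34.7 CPM in Healthy (29.9 to 40.1), 449 in AS (401 to 500), 297 in MTZ-treated (283 to 312) and 249 in MTZ-preventive (240 to 259). All 3 libraries on the high-fat diet were above Healthy, and AS was above both MTZ libraries. The ratio of AS to Healthy was 12.9 (10.8 to 15.6), past 2-fold in a class where 4.57% of genes were higher, and the ratios to AS were 0.662 (0.588 to 0.748) in MTZ-treated and 0.556 (0.495 to 0.625) in MTZ-preventive, neither past 2-fold. The share of fibroblast-like cells with an Lgals3 UMI after thinning was 3.28% in Healthy (2.59 to 4.08), 30.1% in AS (25.4 to 35.2), 18.4% in MTZ-treated (16.9 to 20.05) and 17.3% in MTZ-preventive (16.2 to 18.5). Without thinning the shares were 6.34%, 42.0%, 29.0% and 28.1%.

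The fibroblast-like cells of the libraries lay in different clusters when all kept cells were clustered together, a split read after seeing the data. The largest cluster of them in Healthy held 37.0% of its fibroblast-like cells and had under 20 AS cells, and clusters with 13.6% and 28.6% of those of MTZ-preventive had under 20 Healthy cells. The largest in AS held 34.1% of its fibroblast-like cells and had under 20 of those of Healthy or MTZ-preventive. Lgals3 was at 451 CPM in its AS cells, and MTZ-treated was at 1.05 times AS (0.532 to 1.92) on 24 cells. One cluster had at least 20 fibroblast-like cells in all 4 libraries, 667 in Healthy, 83 in AS, 1120 in MTZ-treated, with 1386 in MTZ-preventive. Lgals3 stood there at 31.2 CPM in Healthy (25.1 to 38.5), 440.2 in AS (363 to 529), 249 in MTZ-treated (233 to 266) and 175 in MTZ-preventive (162 to 188). The order of the libraries was that of the whole class, with ratios of 14.1 for AS to Healthy (10.6 to 18.8), 0.566 for MTZ-treated to AS (0.466 to 0.694) and 0.397 for MTZ-preventive to AS (0.325 to 0.488). In other clusters the order against AS differed. In one with 83 AS cells, MTZ-treated was at 2.68 times AS (2.15 to 3.37) on 53 cells and MTZ-preventive at 0.674 times (0.542 to 0.845), and in one with 32 AS cells MTZ-preventive was at 1.62 times AS (1.10 to 2.50).

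In endothelial-like cells (Pecam1, Cdh5, Kdr) Lgals3 stood at 29.0 CPM in Healthy (22.3 to 37.1), 180 in AS (147 to 219), 95.2 in MTZ-treated (84.2 to 107) and 138 in MTZ-preventive (125 to 151). Healthy was lowest and AS highest, with ratios of 6.22 for AS to Healthy (4.50 to 8.65), 0.528 for MTZ-treated to AS (0.419 to 0.670) and 0.763 for MTZ-preventive to AS (0.615 to 0.954). In this class 5.16% of genes were higher past 2-fold in AS than in Healthy. In single clusters of these cells, ratios to AS were 0.454 to 1.31 in MTZ-treated and 0.716 to 2.22 in MTZ-preventive. Their limits included 1 in each, on 3 to 20 Lgals3 UMIs in AS. The ratios of AS to Healthy there were 2.27 to 17.8, with limits that included 1 in some. A further cluster held 27.0% of the AS endothelial-like cells, at 338 CPM (246 to 454), and had too few such cells elsewhere for a ratio. In smooth muscle-like cells (Myh11, Cnn1, Lmod1) the levels were 75.3 CPM in Healthy (66.6 to 84.8), 156 in AS (103 to 227), 89.2 in MTZ-treated (78.2 to 101) and 139 in MTZ-preventive (127 to 151). The AS value rested on 64 cells and 27 Lgals3 UMIs, and its limits overlapped MTZ-preventive. Its ratio to Healthy of 2.07 (1.34 to 3.08) was just past 2-fold, with 10.4% of genes higher and 17.7% lower in that class, and it dropped under that fold with at least 4 markers per class (log2 0.99), by clusters (log2 0.9991) and with 10 CPM added (log2 0.96). In single clusters it was 1.86 (0.946 to 3.31, log2 0.89) and 7.46 (3.47 to 15.9), on 12 and 15 Lgals3 UMIs in AS. Lgals3 was thus past 2-fold in AS against Healthy in 4 of 4 classes, and past 2-fold in none of the classes set against AS in the MTZ libraries, although MTZ-treated endothelial-like cells passed it with the looser cell filter (log2 -1.04). The share of all genes lower past 2-fold in those comparisons was 6.55% in endothelial-like, 4.4% in fibroblast-like, 11.6% in smooth muscle-like and 23.1% in macrophage-like cells for MTZ-treated. For MTZ-preventive it was 3.76% in endothelial-like, 2.98% in fibroblast-like, 10% in smooth muscle-like, 6.48% in adipocyte-marker and 28.3% in Prg4 and Cxcl13 positive cells.

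**Figure D3:**
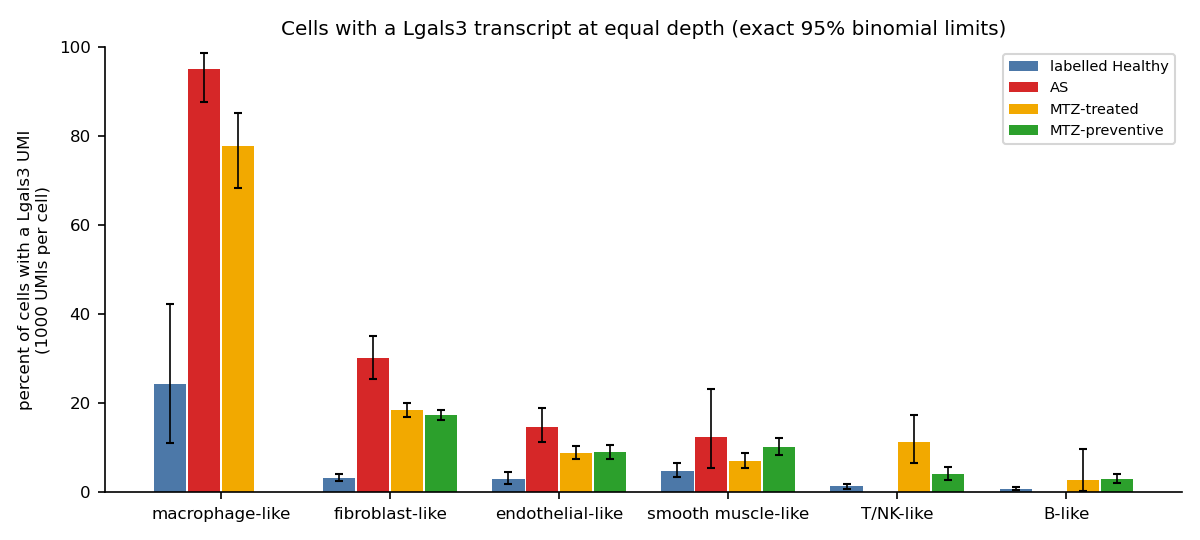
Share of cells (percent) with at least 1 Lgals3 UMI after every cell was thinned to 1000 UMIs, by class and library, with exact 95% Clopper-Pearson limits. Macrophage-like cells of AS reach 95%, fibroblast-like cells run from 3.28% in Healthy to 30.1% in AS, and B-like cells stay at 0.756% to 3.03%.

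Free RNA from burst cells can place UMIs in cells that do not express a gene, and B-like cells gave a floor for Lgals3. Their share with an Lgals3 UMI after thinning was 0.756% in Healthy, 2.78% in MTZ-treated and 3.03% in MTZ-preventive, at median depths of 1929, 1373 and 1669 UMIs, and fibroblast-like cells were above it in each of those libraries at median depths of 1445, 1534.5 and 1561 UMIs. The MTZ-treated value rested on 72 cells and 3 Lgals3 UMIs. With T/NK-like cells included, the level was 12.8 CPM in Healthy, 109 in MTZ-treated (79.3 to 147) and 41.5 in MTZ-preventive. In MTZ-treated that was not below its endothelial-like (95.2 CPM) or smooth muscle-like cells (89.2 CPM). In AS no such floor was measurable, since the 13 lymphocytes held 1 Lgals3 UMI together (44.7 CPM, 1.13 to 249). The ratio of Lgals3 to C1qa, C1qb and C1qc UMIs was 0.428 in the macrophage-like cells of AS but 6.31 in its fibroblast-like cells, 2.0 in endothelial-like, 4.34 in adipocyte-marker and 13.5 in smooth muscle-like cells. The C1q genes are also macrophage markers of the gate, which by itself keeps their UMIs low in the other classes. Macrophage markers summed to 182 CPM in the AS fibroblast-like cells (9 of 12 detected) and to 99.6, 173 and 102 CPM (12 of 12) in those of Healthy, MTZ-treated and MTZ-preventive. In endothelial-like cells they summed to 202 CPM in AS and 96.7 to 107 CPM elsewhere. Neutrophil markers were at 1298 CPM in AS fibroblast-like cells against 53.9 to 82.4 CPM elsewhere, and at 981 CPM in AS endothelial-like cells against 26.6 to 68.9 CPM. Adipocyte markers in fibroblast-like cells were at 1818 CPM in AS and 1894 in MTZ-preventive against 110 in Healthy and 371 in MTZ-treated. In endothelial-like cells they were at 2680 CPM in AS and 1210.1 in MTZ-preventive against 52.9 in Healthy and 67.2 in MTZ-treated. The part of RNA from these other cells in the Lgals3 levels was not tested.

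The neutrophil-like cells of AS had 781 CPM of Lgals3 (641 to 943) beside 128233 CPM of neutrophil markers. Levels were therefore also taken in the cells without a UMI of C1q genes, Lyz2, S100a8 or S100a9, a choice made after seeing the data. In such fibroblast-like cells Lgals3 was at 33.4 CPM in Healthy, 476 in AS, 291 in MTZ-treated, with 248 in MTZ-preventive, and the ratio of AS to Healthy was 14.2 (11.5 to 17.6). A cell without such a UMI at this depth may still hold such RNA. In such endothelial-like cells Lgals3 was at 26.6 CPM in Healthy, 90.8 in AS (59.8 to 132), 93.5 in MTZ-treated and 138 in MTZ-preventive. AS stayed above Healthy there, at 3.42 times (2.08 to 5.49), but it no longer stood above MTZ-treated (ratio of MTZ-treated to AS 1.03, 0.690 to 1.59), and MTZ-preventive came out higher than AS (1.51, 1.03 to 2.32). In such smooth muscle-like cells the ratio of AS to Healthy was 2.04 (1.23 to 3.22).

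Lgals3 was uneven among fibroblast-like cells. Those with at least 2 of Spp1, Tnfrsf11b, Comp and Ibsp, genes of matrix and mineralising plaque cells, were few: 25 in AS, 55 in MTZ-treated, with 32 in MTZ-preventive. This split was chosen after values had been seen. In AS they had 749 CPM of Lgals3 against 407 in the other 330 cells, a ratio of 1.84 (1.39 to 2.42). In MTZ-treated the levels were 1451 and 245 CPM (5.93, 5.26 to 6.68), and in MTZ-preventive 1077 and 238 CPM (4.52, 3.80 to 5.36). The 8 such cells of Healthy had no Lgals3 UMI and were too few to describe. The gap was thus wider in both MTZ libraries than in AS, where the other cells were also high. Those other cells could still hold Spp1 alone. Spp1 itself was at 7036 CPM over all fibroblast-like cells of AS against 3.23 CPM in Healthy, 1090 in MTZ-treated and 138 in MTZ-preventive. The gaps of the libraries may therefore not compare like with like. Lgals1 differed less between the same cells, with ratios of 1.24 (1.07 to 1.42) in AS, 1.04 (0.980 to 1.11) in MTZ-treated and 1.73 (1.57 to 1.90) in MTZ-preventive. Lgals3bp was at 0.191 times (0.0228 to 0.716) in AS and 0.199 times (0.0241 to 0.722) in MTZ-preventive, each on 2 UMIs in the plaque-gene cells, and at 0.779 times (0.432 to 1.30) on 15 UMIs in MTZ-treated, where the limits included 1.

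**Figure D4:**
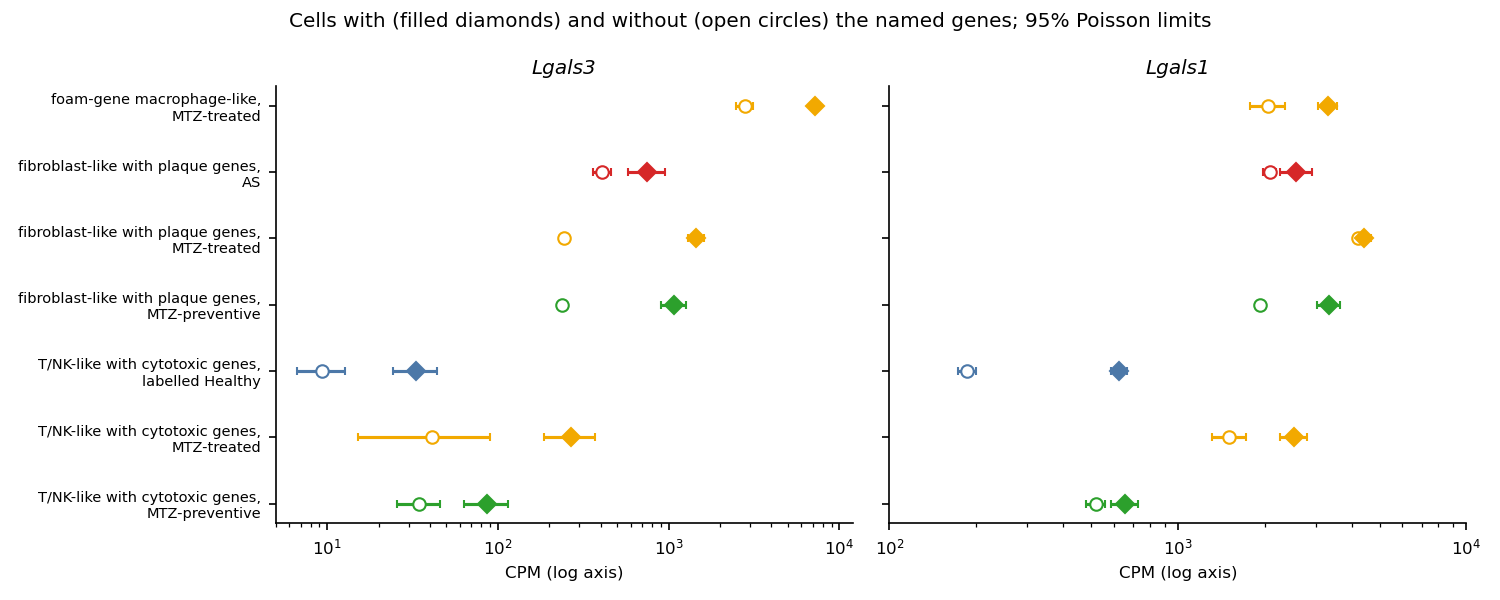
Level (CPM, log axis) of Lgals3 and Lgals1 in cells with at least 2 genes of a set and in the others. The sets are foam-type genes in macrophage-like cells, plaque genes in fibroblast-like cells and cytotoxic genes in T/NK-like cells. Limits are exact 95% Poisson limits. Lgals3 is higher in the cells with the gene set in each pair shown, for example 7210 against 2801 in the macrophage-like cells of MTZ-treated and 1451 against 245 in its fibroblast-like cells.

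Other classes held Lgals3 in fewer libraries. Adipocyte-marker cells (Adipoq, Plin1, Cidec) had 199 CPM in AS (166 to 237) and 209.8 in MTZ-preventive (195.0 to 225.3), a ratio of 1.05 (0.872 to 1.28). Cells without another class that carried Prg4 and Cxcl13 had 347 CPM in AS and 275 in MTZ-preventive, on 25 and 126 cells. Schwann-like cells had 181 CPM in Healthy (145 to 224) and 640.4 in MTZ-preventive (366 to 1039.9) on 20 cells. T/NK-like cells ran from 15.2 CPM in Healthy (12.2 to 18.7) to 148 in MTZ-treated (106 to 201), with 49 in MTZ-preventive (39.7 to 59.8). Healthy was the lowest library for Lgals3 in all 7 classes that had at least 3 libraries. Its limits overlapped MTZ-treated in smooth muscle-like cells (66.6 to 84.8 and 78.2 to 101). They did so too in B-like cells (8.23 to 13.5 and 4.92 to 69.7, the latter on 3 UMIs). In lymphatic endothelial-like cells the levels were only 5.20 CPM in Healthy and 9.75 in MTZ-treated.

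Lgals1, by contrast, was high in mesenchymal classes and set MTZ-treated apart. In smooth muscle-like cells it stood at 3195 CPM in Healthy (3137 to 3254), 3130 in AS (2872 to 3405), 4104 in MTZ-treated (4027 to 4182) and 3140 in MTZ-preventive (3085 to 3197). MTZ-treated lay above the other 3 libraries, whose limits overlapped. In fibroblast-like cells it stood at 2275 CPM in Healthy (2235 to 2316), 2141 in AS (2036 to 2250), 4226 in MTZ-treated (4172 to 4280) and 1947 in MTZ-preventive (1920 to 1975). Here too MTZ-treated was the highest, at 1.97 times AS (1.88 to 2.08), and MTZ-preventive was the lowest. In single clusters of these cells MTZ-preventive was at 0.733 (0.682 to 0.790), 1.24 (1.01 to 1.54) and 1.91 (1.72 to 2.13) times AS. In endothelial-like cells the levels were 405 CPM in Healthy (379 to 433), 369.5 in AS (321 to 423), 657 in MTZ-treated (628 to 688) and 336 in MTZ-preventive (317 to 356). In macrophage-like cells they were 844 CPM in Healthy (643 to 1089), 1998 in AS (1794 to 2220) and 2882 in MTZ-treated (2695 to 3079).

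The ratios of MTZ-treated to AS for Lgals1 were 1.78 in endothelial-like (1.54 to 2.06), 1.97 in fibroblast-like, 1.31 in smooth muscle-like (1.20 to 1.43) and 1.44 in macrophage-like cells (1.27 to 1.64). The limits lay above 1 in 4 of 4 classes, but none was past 2-fold, where 5.14%, 4.23%, 13.5% and 13.4% of genes were higher in these classes in the order given. In single clusters the ratio ran from 1.09 to 2.09 in endothelial-like, 1.65 to 2.24 in fibroblast-like and 1.21 to 1.45 in smooth muscle-like cells. The limits included 1 in endothelial-like clusters at 1.09 (0.797 to 1.53) and 1.20 (0.807 to 1.84). Past 2-fold were an endothelial-like cluster (log2 1.06) and fibroblast-like clusters at log2 1.16 and 1.03. The whole-library ratio was 2.28. MTZ-treated was the highest library for Lgals1 in 6 of 7 classes, the lymphatic endothelial-like cells being the exception with 458 CPM in Healthy, 339 in MTZ-treated and 290 in MTZ-preventive. Between AS and Healthy, Lgals1 was past 2-fold higher in macrophage-like cells (2.37, 1.79 to 3.17), a call lost by clusters (log2 0.99) and with doublets kept (log2 0.93). Its ratios in the other 3 classes were 0.912 to 0.980. Single clusters of endothelial-like cells went both ways, at 3.94 (2.33 to 6.55), 1.52 (1.04 to 2.16), 0.713 (0.506 to 0.983) and 0.558 (0.377 to 0.802). In adipocyte-marker cells Lgals1 was at 791 CPM in AS (724 to 864) and 381 in MTZ-preventive (361 to 402), a ratio of 0.482 (0.435 to 0.535, log2 -1.05), past 2-fold where 6.48% of genes in that class were lower. That call was lost by clusters (log2 -0.96), with the looser cell filter (log2 -0.88) and with totals free of mitochondrial, ribosomal protein and hemoglobin genes (log2 -0.98).

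Within a library, smooth muscle-like cells led for Lgals1 in Healthy, AS and MTZ-preventive, and fibroblast-like cells led narrowly in MTZ-treated (1.03 times, 1.01 to 1.05). Some neighbours in that order had limits that included equal levels, among them fibroblast-like and Schwann-like cells in Healthy (1.04, 0.981 to 1.11) and fibroblast-like and macrophage-like cells in AS (1.07, 0.953 to 1.21). The same held for lymphatic endothelial-like and endothelial-like cells in Healthy and MTZ-preventive, for Prg4 and Cxcl13 positive and adipocyte-marker cells and for neutrophil-like and endothelial-like cells in AS, and for Schwann-like cells beside both T/NK-like and adipocyte-marker cells in MTZ-preventive. B-like cells were the lowest, at 56.1 CPM in Healthy (50.4 to 62.3), 151 in MTZ-treated (90.9 to 236) and 115 in MTZ-preventive (101 to 130).

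T/NK-like cells had 295 CPM of Lgals1 in Healthy (281 to 309), 1988 in MTZ-treated (1825 to 2161) and 556 in MTZ-preventive (524 to 590), on 1847, 151 and 768 cells. MTZ-treated was again the highest, and the AS library had only 8 such cells. Fibroblast markers summed to 55.0, 119 and 140 CPM in the same 3 classes, and smooth muscle markers to 28.7, 93.8 and 55.1 CPM, while fibroblast-like cells of MTZ-treated held 25583 CPM of their markers. Cells with at least 2 of Nkg7, Ccl5, Gzma, Gzmb and Klrd1, genes of cytotoxic T and NK cells, had more Lgals1 than the other T/NK-like cells in each library, a split chosen after values had been seen. The levels were 626 and 186 CPM in Healthy (3.37, 3.06 to 3.71), 2525 and 1506 in MTZ-treated (1.68, 1.41 to 2.0) and 655 and 519 in MTZ-preventive (1.26, 1.11 to 1.43). Lgals3 was divided the same way, at 33.2 and 9.28 CPM in Healthy (3.58, 2.30 to 5.60), 267 and 41.1 in MTZ-treated (6.50, 2.71 to 18.9) and 86.7 and 34.6 in MTZ-preventive (2.51, 1.64 to 3.82). The gene set covered 382 of the 1847 cells in Healthy, 68 of 151 in MTZ-treated and 188 of 768 in MTZ-preventive.

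Among the 4 libraries and their classes, Lgals9 was highest in the endothelial-like cells of the library labelled Healthy, the one with high Apoe. In endothelial-like cells it stood at 318 CPM in Healthy (294 to 342), 156 in AS (125 to 192), 126 in MTZ-treated (114 to 140) and 164 in MTZ-preventive (151 to 178). Healthy was clear of the 3 libraries on the high-fat diet, which lay close to each other. The ratio of AS to Healthy was 0.490 (0.388 to 0.612, log2 -1.02), past 2-fold where 10.4% of genes in that class were lower, and it came to log2 -0.89 with the looser cell filter and -0.98 with 10 CPM added, both under 2-fold. Lymphatic endothelial-like cells had 245 CPM in Healthy (206 to 288), 156 in MTZ-treated (120 to 199) and 174 in MTZ-preventive (122 to 240). In fibroblast-like cells the levels were 143, 112, 81.0 and 122 CPM in Healthy, AS, MTZ-treated and MTZ-preventive, so that MTZ-treated was the lowest, at 0.722 times AS.

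T/NK-like cells had 114 CPM of Lgals9 in Healthy (106 to 123), 72.2 in MTZ-treated (44.1 to 111) and 84.7 in MTZ-preventive (72.3 to 98.6). B-like cells had 78.3, 39.7 and 61.8 CPM in the same 3 libraries. Smooth muscle-like cells were the lowest class with 4 libraries, at 39.2, 23.1, 17.8 and 20.4 CPM. Healthy was thus the highest library in 7 of 7 classes with at least 3 libraries. In several of them its limits were not clear of the others. They overlapped MTZ-treated in T/NK-like cells and MTZ-preventive in lymphatic endothelial-like cells. In smooth muscle-like cells the ratio of AS to Healthy was 0.590 (0.158 to 1.54), on 4 UMIs in AS. Macrophage-like cells overlapped as well, at 114 CPM in Healthy (49.4 to 226) on 8 UMIs, 69.1 in AS (35.7 to 121) and 91.5 in MTZ-treated (60.8 to 132).

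A list of 10 interferon genes was read beside Lgals9, whose promoter window above held 2 matches of GAAANNGAA. In endothelial-like cells, 7 of the 10 were lower past 2-fold in AS than in Healthy and 0 higher, beside 10.4% and 5.16% of all genes. The median log2 ratio was -1.24 against -0.10 over all genes of that class. Over whole libraries 3 of the 9 with at least 10 CPM were lower and 0 higher (median -0.79 against -0.04), beside 11.8% and 9.27% of all genes. The 3 were Ifit3 at 48.9 CPM in Healthy and 16.8 in AS, Irf7 at 95.6 and 36.5, and Usp18 at 27.0 and 10.1. Against AS, 0 of the 10 were lower in endothelial-like cells in either MTZ library, with 0 higher in MTZ-treated and 1 in MTZ-preventive. Of all genes there, 6.55% were lower in MTZ-treated and 3.76% in MTZ-preventive, and 5.14% were higher in MTZ-treated. The share higher in MTZ-preventive was not counted, so no result was read from its 1 gene. A relation between these genes and Lgals9 was not tested.

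Lgals3bp, whose product binds galectin-3 and matrix proteins, was highest in fibroblast-like cells, which held 36.2% to 66.1% of its UMIs. It stood there at 126 CPM in Healthy (117 to 136), 105 in AS (83.1 to 132), 78.9 in MTZ-treated (71.7 to 86.6) and 74.3 in MTZ-preventive (69.0 to 79.8). Both MTZ libraries were below Healthy and overlapped each other. In endothelial-like cells it stood at 80.5 CPM in Healthy (69.1 to 93.4), 54.8 in AS (37.2 to 77.8), 26.3 in MTZ-treated (20.7 to 32.9) and 37.9 in MTZ-preventive (31.7 to 45.0). MTZ-treated was the lowest, at 0.479 times AS (0.311 to 0.753, log2 -1.03), past 2-fold where 6.55% of genes in that class were lower, on 31 UMIs in AS. That call was lost with at least 4 markers (log2 -0.9992), by clusters (-0.80), with the looser filter (-0.89), with doublets kept (-0.89), with totals free of the 3 gene groups (-0.99) with 10 CPM added (-0.84) and in the cells without C1q or Lyz2 UMIs (-0.86).

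In macrophage-like cells Lgals3bp had 3, 15 and 18 UMIs, or 42.9 CPM in Healthy (8.85 to 125), 86.4 in AS (48.4 to 142) and 58.8 in MTZ-treated (34.9 to 93.0), with all limits overlapping. Smooth muscle-like cells had 26.4, 17.3, 14.0 and 11 CPM, and T/NK-like cells 32.8 in Healthy, 21.7 in MTZ-treated and 19.9 in MTZ-preventive. The ratios of AS to Healthy for Lgals3bp were 0.656 to 2.01 in the 4 classes, with limits that included 1 in each, where those of Lgals3 were 2.07 to 12.9.

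Lgals8 was low and even. In the sums by class and library it ran from 0 to 63.1 CPM, with a median of 19.9. In endothelial-like cells it stood at 24.4 CPM in Healthy (18.3 to 31.9), 17.7 in AS (8.48 to 32.5), 26.6 in MTZ-treated (21.0 to 33.3) and 24.6 in MTZ-preventive (19.7 to 30.4), all overlapping. In fibroblast-like cells it stood at 23.7 CPM in Healthy (19.7 to 28.3), 9.58 in AS (3.85 to 19.7), 15.4 in MTZ-treated (12.3 to 19.0) and 19.9 in MTZ-preventive (17.2 to 22.9). The ratio of AS to Healthy, 0.404 (0.159 to 0.857), was past 2-fold in a class with 11.3% of genes lower, but it rested on 7 UMIs in AS and was lost by clusters (log2 -0.39), with 10 CPM added (-0.78) and in the cells without C1q or Lyz2 UMIs (-0.97). B-like cells had 34.7 CPM in Healthy (30.2 to 39.6) and 31.1 in MTZ-preventive (24 to 39.7). In macrophage-like cells Lgals8 had 4, 2 and 3 UMIs, too few for a direction at this depth. The Prg4 and Cxcl13 positive cells had at most 6 UMIs of Lgals8 and of Lgals3bp in either library, and no direction was read from them.

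**Figure D5:**
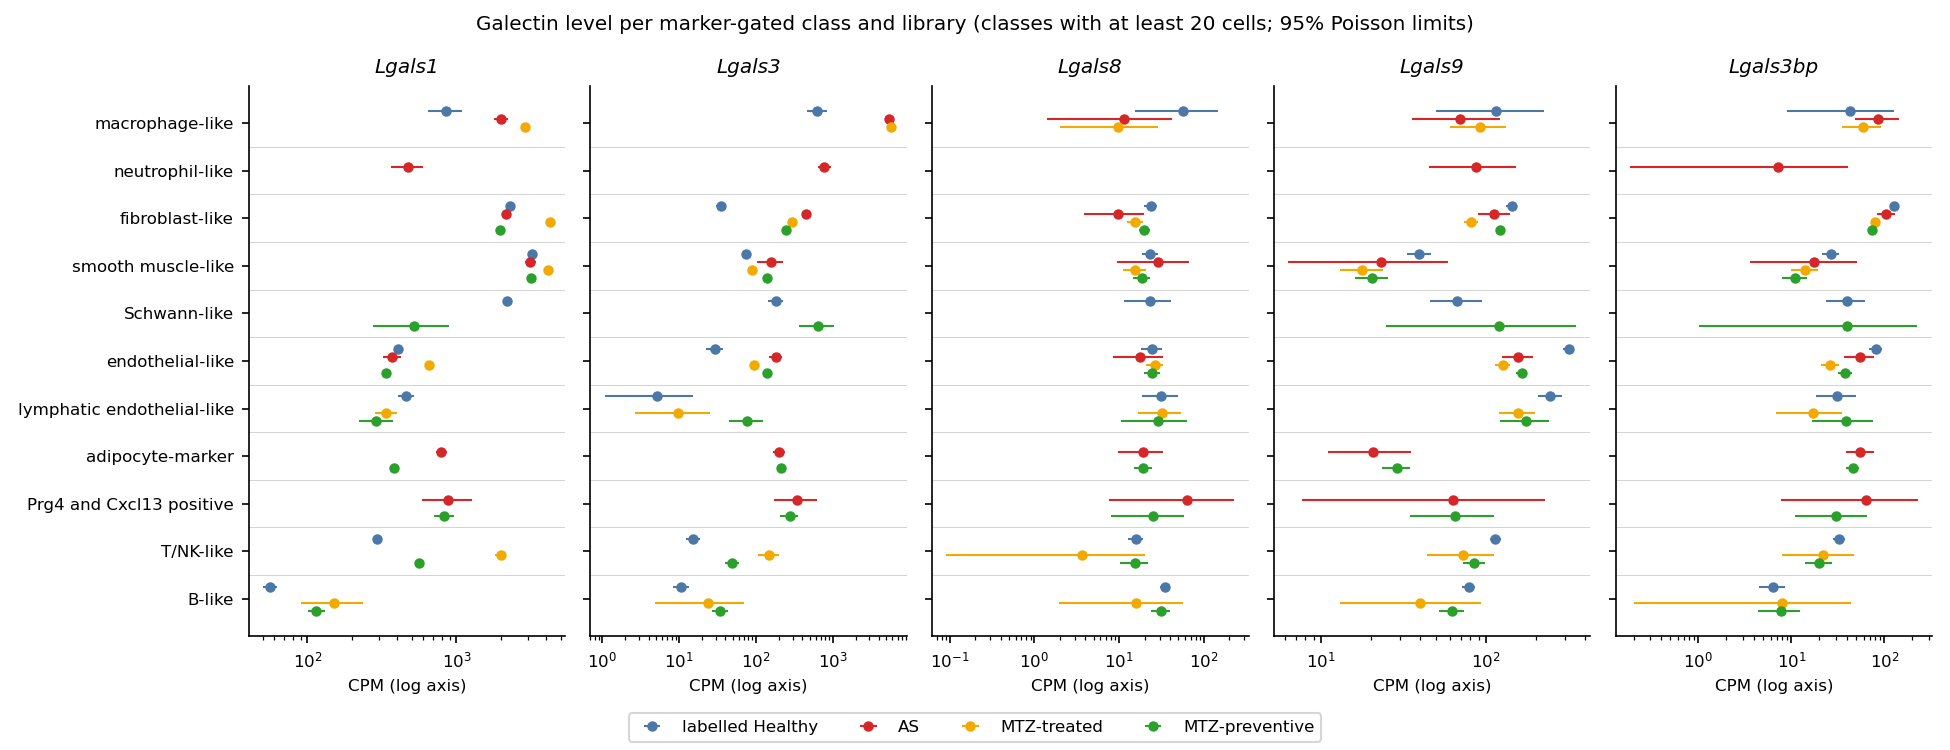
Level (CPM, log axis) of each of the 5 genes by cell class and library for classes with at least 20 cells, with exact 95% Poisson limits, leaving out 2 Lgals8 points at 0. Lgals3 peaks in the macrophage-like cells of AS (5436) and MTZ-treated (5718), Lgals1 in smooth muscle-like and fibroblast-like cells, Lgals9 in endothelial-like cells and Lgals3bp in fibroblast-like cells.

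Over the 31 sums of a class in a library, levels ran from 56.1 to 4226 CPM for Lgals1 (median 791), 5.20 to 5718 for Lgals3 (median 148), 17.8 to 318 for Lgals9 (median 84.7) and 6.29 to 126 for Lgals3bp (median 37.9). As a description over these sums, which share libraries and depth, Pearson's r of log2(CPM + 1) between members was highest for Lgals1 and Lgals3 (0.50) and lowest for Lgals3 and Lgals8 (-0.38). The genes most like Lgals3 among 8682 were Csf2ra (0.81), C1qa (0.80), Creg1 (0.80), Ifi207 (0.77) and Cd300c2 (0.76). Those most like Lgals9 were H2-T23 (0.82), Bst2 (0.77), Ly6e (0.75), Tpm3 (0.75) and Sri (0.74). Lgals1 was closest to Ckb and Rex1bd (0.81 each), Cops9, Ndufa13 and Mrps17 (0.80 each). Lgals3bp was closest to Pdia3 (0.78), Ctsl (0.75), Cnpy2 (0.73), Cmtm3 (0.73) and Surf4 (0.72). The closest to Lgals8 were Zfp597 (0.90), Ap2a2 (0.87), Ddx49 (0.87), Ino80d (0.86) and Sec31a (0.86), at levels where a sum often held under 20 Lgals8 UMIs.

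The other genes of the galectin family were scarce. Lgals12, an adipocyte galectin, had 12, 9, 7 and 70 UMIs in Healthy, AS, MTZ-treated and MTZ-preventive, and it stood at 12.6 CPM in the adipocyte-marker cells of AS and 13.5 in those of MTZ-preventive. Lgals7, an epithelial galectin, had 88, 0, 5 and 9 UMIs and was a leading gene of the 21 mesothelial-like cells. Lgals4 was at 4.0 to 5.97 CPM in the 4 libraries, Lgals2 at no more than 0.925 CPM, and Grifin had 1 UMI in Healthy and 1 in MTZ-preventive. Lgalsl, a galectin-like protein gene, was at 24.2 CPM in Healthy, 50.4 in AS, 36.3 in MTZ-treated, with 34.8 in MTZ-preventive, with a ratio of AS to Healthy of 2.08 (1.76 to 2.45). Its highest class levels were in smooth muscle-like cells, at 101, 179, 93.4 and 83.5 CPM.

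Of 20 galectin binding partners, 17 had at least 10 CPM in AS or Healthy, of which 4 were higher and 3 lower past 2-fold in AS (9.27% and 11.8% of all genes), with a median log2 ratio of 0.41 against -0.04 over all genes. Trem2, a lipid receptor of macrophages, was at 1.04 CPM in Healthy, 77 in AS, 25.6 in MTZ-treated, with 1.20 in MTZ-preventive. Itgam, the integrin chain of myeloid cells, was at 2.25, 39.2, 6.14 and 1.42 CPM. Both were thus highest in AS, as Lgals3 was. Ptprc, the leukocyte phosphatase CD45, was at 174 CPM in Healthy and 22.7 in AS, beside the far smaller number of lymphocytes in AS, and Cd7 was at 22.6 and 2.93 CPM. In MTZ-treated against AS 0 of 15 partners were higher and 2 lower, beside 5.18% and 5.59% of all genes, and in MTZ-preventive against AS 3 of 17 were higher and 2 lower, beside 4.36% and 2.98%.

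Of the 10 glycan enzymes that set galectin ligands, 9 could be read in each comparison. St6gal1, whose α2,6-linked sialic acid blocks galectin-1 binding, was at 29.6 CPM in Healthy and 9.60 in AS. It was the 1 enzyme past 2-fold there, beside 9.27% of all genes higher and 11.8% lower. AS also had far fewer lymphocytes, and their part in this value was not tested. In endothelial-like cells its ratio of AS to Healthy was 0.472 (0.181 to 1.04). Against AS, 0 of 9 were past 2-fold in MTZ-treated (5.18% of all genes higher, 5.59% lower) or in MTZ-preventive (4.36% and 2.98%). Over whole libraries, 5 of 7 genes of foam macrophages were higher in AS than in Healthy (median log2 3.07), 5 of 7 lower in MTZ-treated than in AS (-1.43) and 4 of 7 lower in MTZ-preventive (-1.53), beside the 9.27%, 5.59% and 2.98% of all genes given above for those directions. Mmp12, a macrophage elastase, was at 0.143 CPM in Healthy, 124 in AS, 45.3 in MTZ-treated, with 0.432 in MTZ-preventive. Within macrophage-like cells the list differed from this: of its 8 genes 1 was higher and 2 lower in MTZ-treated than in AS (median -0.09), beside 13.4% and 23.1% of all genes in that class. Mmp12 was the higher one, at 2157 against 1054 CPM (2.05, 1.73 to 2.42), and Spp1 was lower, at 5414 against 19125 CPM. A whole-library count mixes the number of cells of every class with their levels. For Spp1, fibroblast-like cells held 5143 of the 11283 UMIs of the AS library. What lay behind the whole-library counts was not tested. Over whole libraries again, genes of modulated smooth muscle cells were higher in AS than in Healthy in 9 of 10 cases, beside 9.27% of all genes. Their median log2 ratio was 1.57 against -0.04 over all genes, and Timp1 at 382.5 against 40.7 CPM was among them. Against AS, 1 of 10 was lower in MTZ-treated and 4 of 10 in MTZ-preventive, beside 5.59% and 2.98% of all genes. In smooth muscle-like cells themselves, 3 of the 10 were higher in AS than in Healthy and 3 lower (median 0.20). Of all genes in that class 10.4% were higher and 17.7% lower. In fibroblast-like cells 8 of the 10 were higher and 0 lower, beside 4.57% and 11.3% of all genes. Of 4 resident macrophage genes read over whole libraries, 2 were higher in AS than in Healthy and 0 lower, beside 9.27% and 11.8% of all genes. Folr2 stood at 0.643 CPM in Healthy, 19.99 in AS, 6.01 in MTZ-treated, with 0.647 in MTZ-preventive. Within macrophage-like cells, 33 in Healthy, the list went the other way. Of its 7 genes there, 1 was higher and 5 lower in AS than in Healthy (median -4.55). All genes in that class were 28.3% higher and 31.5% lower past 2-fold, shares that take in genes with 1 UMI in Healthy.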

How the data were processed

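The authors deposited, for each library of 5' single-cell RNA sequencing, a matrix of raw UMI counts per gene and barcode made with Cell Ranger 5.0.0 per the file headers; the processing notes also name STAR and mm10. Aortas were pooled before each library was made. The immune receptor contigs were not used here. As the methods of the study state, barcodes were kept with over 200 genes, over 1000 UMIs, complexity over 0.7, under 10% mitochondrial and under 5% red cell gene UMIs. For doublets the study names DoubletFinder. Here the top 0.8% per 1000 cells of a Scrublet-type score (2 simulated doublets per cell) was removed instead, 39 to 2130 per library. Of 32285 gene lines, 38 symbols on more than 1 line were summed, giving 32245. Counts were summed per library and class and scaled to CPM. Levels have exact Poisson limits, shares Clopper-Pearson limits after thinning to 1000 UMIs, and ratios exact conditional binomial limits, all at 95%. No test was run, since each group was 1 library. The calculations were tested on simulated data. Python 3.11.15, numpy 2.4.6, scipy 1.17.1, igraph 0.11.9, leidenalg 0.10.2 and, for TMM factors, R 4.3.3 with edgeR 4.0.16 were used. Genes were named as the 5 galectin genes, all other family genes, up to 3 genes per direction of each list past 2-fold with at least 10 CPM, and the 5 most correlated genes of each member. A selection of these is printed. The genes, lists and markers were chosen with earlier results of these data known. Alternatives were other cell filters, doublets, gates, clusters, scalings, weights and pseudocounts.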

Additional observations from a re-analysis of the deposited data

How the results depend on the processing

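No paired analysis was possible because each group had 1 library. Over whole libraries, the 15 ratios of the 5 genes were recomputed under 9 alternatives, 135 values in all, of which 93 stayed within their counting limits and 10 changed sign, none of a gene past 2-fold. The ratio of AS to Healthy for Lgals3 stayed past 2-fold under all 9, at log2 3.01 to 4.71. With each class given equal weight the count of genes past 2-fold became 0 in MTZ-treated against AS (2 otherwise) and 0 in MTZ-preventive against AS (1 otherwise), and the 3 calls lost there were the only calls lost over whole libraries. That setting keeps only classes with at least 20 cells in both libraries, and MTZ-preventive then has no macrophage-like cells. Otherwise log2 ratios to AS ran down to -1.72 for Lgals3 in MTZ-treated and to -2.00 in MTZ-preventive. Within classes, 58 of 590 values changed sign, and 2 of these were changes of a value past 2-fold. Both were for Lgals8 in macrophage-like cells of AS against Healthy, at log2 -2.22 on 2 and 4 UMIs. They came to 0.78 by clusters and 3.95 with the looser cell filter, and the cause was not tested. Other values changed sign from under 2-fold to past it in the cells of single clusters. Lgals3 did so in fibroblast-like cells of MTZ-treated against AS (log2 -0.59 to 1.42) and endothelial-like cells of MTZ-preventive against AS (-0.39 to 1.13). Lgals1 did so in endothelial-like cells of AS against Healthy (-0.13 to 1.96). Calls within classes were lost in 27 of 101 cases and gained in 18, of which 10 were in the cells of single clusters for Lgals1 or Lgals3. Of 155 shares, 106 moved without thinning. The TMM factors were 0.982 to 1.02. The cells without C1q or Lyz2 UMIs, and those also without S100a8 or S100a9 UMIs, were added after seeing the data, as were single clusters. The smallest library, AS, limits the precision: 3 UMIs there are 0.80 CPM against 0.0925 CPM in MTZ-preventive.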
